A study of Mus musculus with 16 samples.

Results

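This report describes how gene expression in the thyroid of *Glis3* conditional knockout mice responded to a low iodine diet. Its members were chosen from the sample titles, as thyroids of knockout mice on a low iodine or a normal diet, and made up 8 of the 16 mice of the series, 4 on each diet. The other 8 mice were wild type, 4 on each diet, and serve for the comparison between genotypes.

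All mice were female, C57BL/6 and 1 month old, and were put on their diet at weaning for less than a week. *Glis3*-Pax8Cre(ND) is the name used here for *Glis3*-deficient mice on the normal diet (ND, NIH-31), and *Glis3*-Pax8Cre(LID) for such mice on the low iodine diet (LID, Harlan TD.95125). Both groups carry the same alleles, B6;129-Glis3<tm2Amj> and Pax8<tm1.1(cre)Mbu>, and by their labels they differ only in diet. The Cre recombinase is inserted into *Pax8*, which is active in thyroid follicular cells, so cells without Cre keep *Glis3*, and each knockout mouse also carries a changed *Pax8* allele. How complete the deletion was is not measured here. Single mice of these groups are written ND 1 to ND 4 and LID 1 to LID 4. WT(ND) and WT(LID) are the wild type groups on the same diets. Whole thyroids were sequenced, so fewer cells of a type and less RNA per cell cannot be told apart in any result below.

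Of the 8 libraries, ND 1 had the lowest depth (13892352 counts in genes) and ND 2 the highest (156548225). Levels are given as CPM, the counts of a gene relative to the library total after scaling for composition (TMM), and fold changes as log2 of LID over ND, so that a positive value is a higher level on the low iodine diet. A level of 3 counts, the floor below which no value is read, corresponded to between 0.0182 and 0.188 CPM in these 8 mice, and this covers counting error only. A gene is called higher or lower where the edgeR quasi-likelihood test, with p-values corrected over all 16630 genes (Benjamini-Hochberg), gave an adjusted p under 0.05, and a stricter call asks for an adjusted p under 0.01 and a fold over 2. Later adjusted p-values of a sentence are written q, and genes listed as called with a log2 alone had an adjusted p under 0.05. Abundance is compared between genes per kilobase of exon.

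Thyroid follicular cells take up iodide from the blood, oxidise it and couple it to tyrosines of thyroglobulin, from which thyroid hormone is later released by proteolysis in lysosomes. When iodide is scarce, less hormone is made, the pituitary secretes more thyrotropin (TSH), and TSH acts through its receptor and cAMP to raise iodide uptake, hormone synthesis and the growth and division of follicular cells. GLIS3 is a zinc finger transcription factor of follicular cells that is needed for the TSH-driven expression of the sodium iodide symporter, and loss of GLIS3 causes congenital hypothyroidism.

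The tissue label held for all 8 libraries. Thyroglobulin (*Tg*) alone took 13.5, 18.7, 17 and 14.3 percent of the counts in ND 1 to ND 4 and 11.4, 7.87, 13.2 and 9.94 percent in LID 1 to LID 4. Each of the 12 thyroid follicular markers had counts in each mouse, and per kilobase *Tg* was the most abundant of them. Summed over the markers, the level was 127700, 188100, 176600 and 133300 CPM in ND and 133400, 100100, 167300 and 119500 CPM in LID. Of the 12, 4 were called higher on the low iodine diet, and without ND 4 5 higher and 2 lower.

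*Glis3* itself was measured first. Its level was 105, 93, 101 and 85.8 CPM in ND and 150.3, 119.5, 204 and 185 CPM in LID. All 4 mice on the low iodine diet lay above all 4 on the normal diet (log2 fold change 0.78 ± 0.19 SE, n = 4 per group, edgeR adjusted p = 0.00824). Every mouse here carries the *Glis3* deletion, and counts over the whole gene do not measure the deleted exon, so this value neither checks the genotype nor measures functional *Glis3* RNA. In WT the same diet gave a log2 fold change of 1.10 (edgeR adjusted p = 3.32e-04), and the difference between genotypes was -0.32 (q = 0.490). Counting ignored strand, and *Glis3* overlaps *D930032P07Rik*, so reads of these could not be separated.

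Library ND 4 stood apart from the others. The summed level of 15 thymocyte markers was 20.1, 21.1, 19.7 and 4172 CPM in ND and 15.9, 15.4, 14 and 566 CPM in LID. ND 4 was thus far above the other 7 mice, and LID 4 was the next highest. Between 1 and 3 of the 15 markers had no count at all in each of the other 6 mice. Markers of thymic epithelium were likewise highest in ND 4 and next in LID 4, with 26.4, 6.74, 6.83 and 382 CPM in ND and 14.5, 5.83, 6.17 and 74.8 CPM in LID. Across genes, log2 CPM of ND 4 correlated with the other ND mice at r = 0.937 to 0.946, whereas ND 1 to ND 3 correlated with each other at r = 0.967 to 0.985. Genes are not independent replicates, so these correlations describe the libraries only. Calls of named genes that change without ND 4 are stated below, as are counts of list members that move by 1.5 times or more.

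Other tissues that border the thyroid also differed between libraries. The summed level of tracheal epithelium markers was 17.7, 5.08, 1.21 and 87 CPM in ND and 277, 9.11, 8.49 and 28.1 CPM in LID, with LID 1 the highest of the 8. Parathyroid markers summed to 8871, 6796, 5747 and 5693 CPM in ND and 3582, 3456, 1257 and 453 CPM in LID, and all mice on the low iodine diet lay below all mice on the normal diet.

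**Figure D1:**
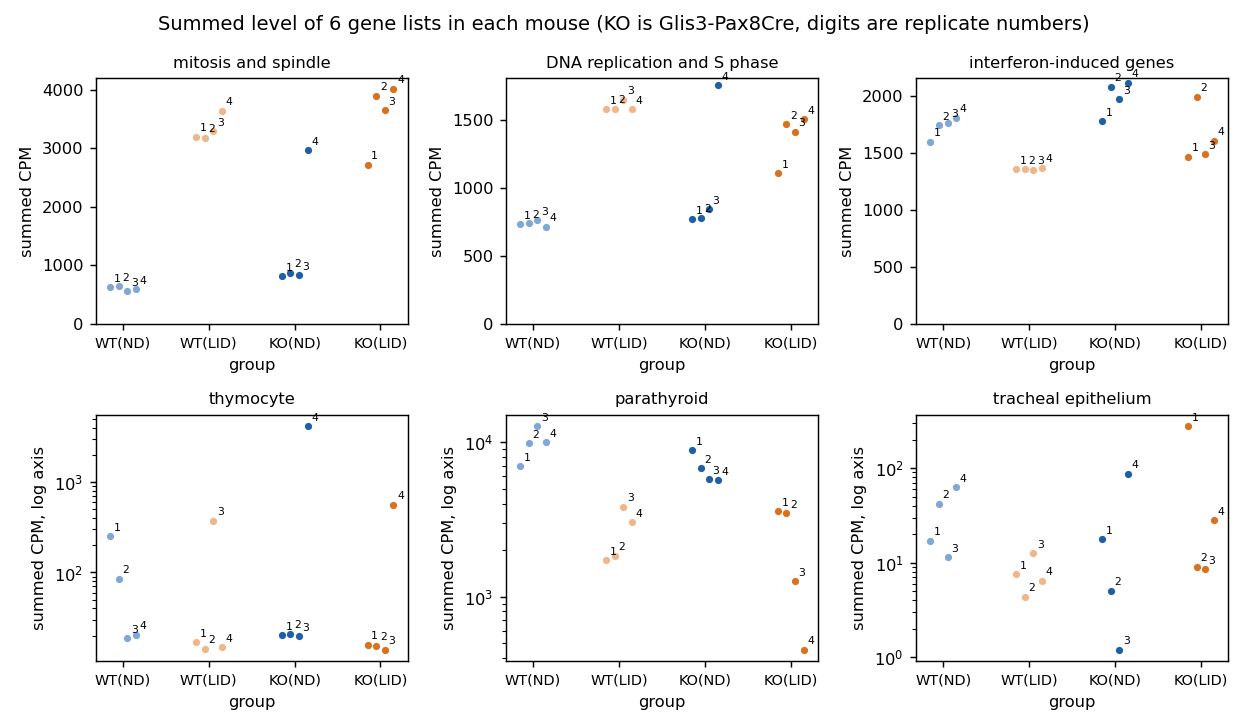
Summed level in CPM of 6 gene lists in each of the 16 mice, with ND in blue, LID in orange, WT in paler shades, KO for *Glis3*-Pax8Cre and digits for the replicate; the axes of the thymocyte, parathyroid and tracheal epithelium panels are logarithmic, and the other panels start at 0. *Glis3*-deficient mouse 4 on the normal diet has the highest thymocyte sum (4172 CPM) and, within its group, the highest mitosis sum (2974 CPM).

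The low iodine diet changed expression broadly in *Glis3*-deficient thyroid. By the stricter call, 487 genes were higher (2.93 percent of those tested) and 345 lower (2.07 percent) in *Glis3*-Pax8Cre(LID) than in *Glis3*-Pax8Cre(ND). At an adjusted p under 0.05 by edgeR, 2184 genes were higher (13.1 percent) and 2039 lower (12.3 percent). Counts of list members called in *Glis3*-deficient mice below are to be read beside these shares. The median log2 fold change over all 16630 genes was -0.033. Without ND 4, strict calls numbered 566 higher and 363 lower, of which 406 and 278 were shared with the calls from all mice, and calls at an adjusted p under 0.05 numbered 2446 and 2322. Without ND 4 and LID 4, a setting added after the data were seen, they numbered 539 and 308 by the strict call. With library size as the only scaling, the median over all genes shifted by -0.13, to -0.17, and the split turned to 360 higher and 514 lower (strict) or 1297 higher and 3385 lower, so directions below are relative to TMM scaling. A fit of the 8 mice alone gave 1321 higher and 1053 lower calls, and adding the replicate number as a block to it gave 1545 and 1348. Where calls below ended with the block it was in this fit, with fewer mice, unless 16 is given.

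In WT the diet changed more genes, with 3476 higher (20.9 percent) and 3467 lower (20.8 percent) in WT(LID) than in WT(ND). WT and *Glis3*-deficient comparisons share no mice. Of the genes called higher in *Glis3*-Pax8Cre, 1428 were also called higher in WT, which is 65.4 percent of the former list and 41.1 percent of the latter. For lower genes, 1206 were shared, 59.1 percent and 34.8 percent. Across all tested genes the fold changes in both genotypes had a Pearson's r of 0.527 and a Spearman's rho of 0.519, given as a description since genes are not independent replicates. Whether the response to diet differed between genotypes was tested by the interaction, given below as the difference (log2 fold change in *Glis3*-Pax8Cre minus that in WT). It was above 0 for 737 genes (4.43 percent) and below 0 for 1232 (7.41 percent). Without WT(LID) 2 or WT(LID) 3 the genes above 0 numbered 440 and 432, and without ND 4 they numbered 717, with 1511 below 0.

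**Figure D2:**
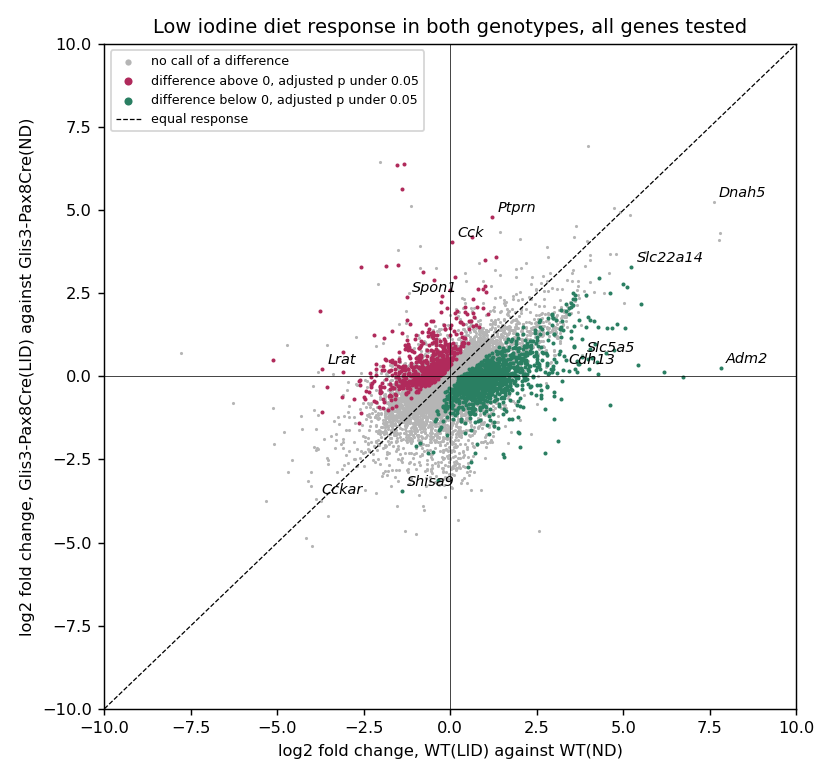
Log2 fold change of each tested gene in WT(LID) against WT(ND) (horizontal axis) and in *Glis3*-Pax8Cre(LID) against *Glis3*-Pax8Cre(ND) (vertical axis), with genes whose difference was called above 0 in red, below 0 in green and others in grey. The dashed line marks equal responses; 1232 genes are green and 737 red.

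Genes with the largest rise included a vesicle protein, a peptide hormone, an enzyme of vitamin D activation and a glutamate transporter. The 12 named here had the largest log2 fold change among 290 genes that met the stricter call, had groups of 4 that did not overlap and averaged at least 5 CPM in the 8 mice, so the lack of overlap was a condition of the choice. *Dnah5*, an axonemal dynein heavy chain, was at 0.627, 0.0726, 0.306 and 0.785 CPM in ND and 10.9, 11.3, 21.6 and 15.3 CPM in LID. It was under 1 CPM in each ND mouse and over 10 CPM in each LID mouse (log2 fold change 5.25 ± 0.59 SE, edgeR adjusted p = 3.37e-05). *Ptprn*, a protein of dense-core secretory vesicles, was at 103, 149.7, 325 and 62.4 CPM in ND and 4392, 4223, 4891 and 4307 CPM in LID. Its level varied among ND mice, with ND 3 the highest and ND 4 the lowest, and was close to uniform in LID (log2 4.80 ± 0.45 SE, edgeR adjusted p = 7.89e-06). *Cck*, which encodes cholecystokinin, was at 2.45, 2.38, 4.80 and 1.80 CPM in ND and 39.4, 58.6, 40.7 and 50.6 CPM in LID. All LID mice lay several times above the highest ND mouse (log2 4.04 ± 0.31 SE, edgeR adjusted p = 1.08e-06).

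The diet response of *Ptprn* and *Cck* differed between genotypes. In WT the log2 fold change of *Ptprn* was 1.20 (edgeR adjusted p = 0.0217), with a difference of 3.59 (q = 7.36e-04). For *Cck* the WT value was 0.05 (edgeR adjusted p = 0.915) and the difference 3.99 (q = 2.77e-05). *Dnah5* had a log2 fold change of 7.61 in WT (edgeR adjusted p = 6.37e-07), and its difference was -2.36 (q = 0.0615).

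*Sphk1*, a sphingosine kinase, was at 2.76, 1.53, 2.45 and 3.21 CPM in ND and 19, 38.2, 26.9 and 35.7 CPM in LID. *Cyp27b1*, the enzyme that makes active vitamin D, was at 14.7, 6.61, 11.5 and 10.3 CPM in ND and 117, 137, 124 and 132 CPM in LID. *Slc1a1*, a glutamate and aspartate transporter, was at 7.03, 6.77, 8.22 and 5.26 CPM in ND and 88.2, 69, 65.8 and 87.3 CPM in LID. For each of these, every LID mouse was above every ND mouse, with log2 3.60 ± 0.41 SE, edgeR adjusted p = 3.66e-05 for *Sphk1*. The fold change was log2 3.59 ± 0.52 SE, edgeR adjusted p = 3.02e-04 for *Cyp27b1*, and log2 3.51 ± 0.24 SE, q = 4.88e-07 for *Slc1a1*. The difference between genotypes was above 0 for *Sphk1*, 2.28 (edgeR adjusted p = 0.0132), and for *Slc1a1*, 2.51 (q = 1.26e-04). For *Cyp27b1* it was 0.75 (edgeR adjusted p = 0.521).

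The other 6 genes included endothelial lipase (*Lipg*), parathyroid hormone related protein (*Pthlh*) and the rod transducin *Gnat1*. *Lipg* was at 1.76, 1.33, 1.75 and 3.41 CPM in ND and 12.8, 17.9, 26.8 and 20.5 CPM in LID (log2 fold change 3.24 ± 0.33 SE, edgeR adjusted p = 1.16e-05). *Pthlh* rose as well (log2 2.98 ± 0.29 SE, edgeR adjusted p = 8.70e-06). Both were higher in each LID mouse, with LID 1 the lowest of its group. The largest of the 6 by log2 fold change was the uncharacterised *I730030J21Rik*, with 1.20 ± 0.906 CPM in ND and 13.7 ± 1.24 CPM in LID (mean ± SD, n = 4, log2 3.49 ± 0.37 SE, edgeR adjusted p = 1.37e-05). *Slc22a14*, an organic ion transporter, had log2 3.29 ± 0.23 SE, edgeR adjusted p = 5.05e-07. *Gnat1* had log2 2.96 ± 0.28 SE, edgeR adjusted p = 5.69e-06. *Tmem35a*, an acetylcholine receptor chaperone, had log2 2.88 ± 0.26 SE, edgeR adjusted p = 5.42e-06. For *Slc22a14* and *Gnat1* the response was smaller than in WT, with differences of -1.94 (edgeR adjusted p = 0.00111) and -1.33 (q = 0.0307). Leaving out 1 mouse ended the call of the difference for *Gnat1* (7 mice, up to edgeR adjusted p = 0.0626, 0.0518 without ND 4).

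Promoters of the risen genes were searched for the cAMP response element (CRE), bound by CREB family factors, and for motifs of cell cycle genes. RefSeq promoter windows of 300 bases on build GRCm38.p6, from 250 bases before to 50 bases after the start, were available for 10 of the 12 genes, not for *Lipg* and *Gnat1*. Both strands were searched for TGACGTCA (CRE), TGACG (the CRE core, which each CRE also holds), TTTGAA (cell cycle homology region, CHR) and CCAAT. Of the 10 genes, 4 held a CRE core in a listed promoter and 6 held none, and only *I730030J21Rik* held a full CRE. The windows of *Ptprn* and *Cck*, which held a CRE core, are shown, chosen after the matches were seen. Capitals mark those motifs, and all sequences run from 5′ to 3′ on the strand of the gene.
Ptprn: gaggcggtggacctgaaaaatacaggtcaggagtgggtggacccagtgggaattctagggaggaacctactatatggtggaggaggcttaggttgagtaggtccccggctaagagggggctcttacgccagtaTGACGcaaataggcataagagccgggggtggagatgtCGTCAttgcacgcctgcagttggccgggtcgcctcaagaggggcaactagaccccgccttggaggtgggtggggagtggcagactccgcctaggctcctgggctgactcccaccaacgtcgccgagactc
Cck: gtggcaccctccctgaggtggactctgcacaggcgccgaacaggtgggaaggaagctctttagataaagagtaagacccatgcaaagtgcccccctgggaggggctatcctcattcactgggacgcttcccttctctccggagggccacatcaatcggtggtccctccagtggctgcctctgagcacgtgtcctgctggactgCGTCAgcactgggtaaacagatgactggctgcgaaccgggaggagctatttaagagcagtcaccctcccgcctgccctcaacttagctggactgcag

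These windows lie at chr1:75264159-75264458 on the minus strand for *Ptprn* (1 of 2 listed promoters, the other without a core) and chr9:121495645-121495944 on the minus strand for *Cck*. Of genes with a listed promoter, 26.5 percent of strictly higher, 19.5 percent of strictly lower and 32.3 percent of all tested held a CRE core in at least 1 of their promoters. Counted singly, which is another unit, 20.8 percent of all 32851 promoters held it. The full CRE was held by 3.25 percent of tested genes and 1.79 percent of single promoters, CHR by 14.9 and 17.9 percent, and CCAAT by 42.1 and 37.4 percent. No binding was measured.

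**Figure D3:**
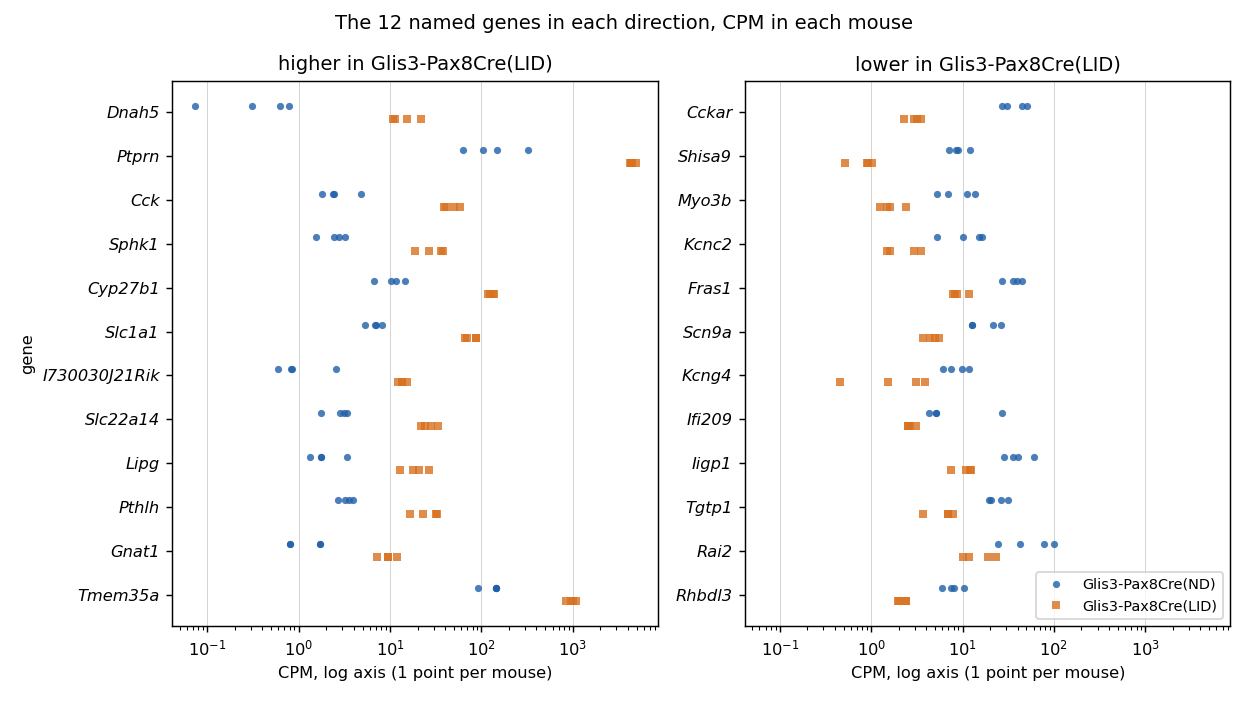
CPM (logarithmic axis) of the 12 higher and 12 lower genes named by size of change in each of the 8 *Glis3*-deficient mice, with ND as blue circles and LID as orange squares. In each gene the 4 mice of a diet lie apart from the 4 of the other, which the choice of these genes required; *Ptprn* reaches 4891 CPM in LID 3.

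The 12 genes with the largest fall, chosen from 105 in the same way, held channels, a receptor for cholecystokinin and interferon-induced GTPases. *Cckar*, the cholecystokinin A receptor, was at 31, 50.7, 44.6 and 27 CPM in ND and 2.93, 3.48, 3.21 and 2.27 CPM in LID. Each LID mouse had a level far below the lowest ND mouse (log2 fold change -3.69 ± 0.53 SE, edgeR adjusted p = 2.82e-04), while its ligand *Cck* rose. In WT *Cckar* had a log2 fold change of -3.88 (edgeR adjusted p = 7.14e-05), with a difference of 0.19 (q = 0.896). *Cckar* overlaps the small RNA gene *Rnu7*, so its counts are uncertain to that extent. *Shisa9*, a regulator of AMPA receptors, was at 7.09, 9.01, 12.2 and 8.46 CPM in ND and 0.518, 0.927, 0.903 and 1.02 CPM in LID (log2 -3.45 ± 0.33 SE, edgeR adjusted p = 6.12e-06). *Myo3b*, an unconventional myosin, fell as well (log2 -2.46 ± 0.31 SE, edgeR adjusted p = 8.15e-05). Both were lower in all 4 LID mice than in any ND mouse, and the fall of *Shisa9* was larger than in WT, with a difference of -2.05 (edgeR adjusted p = 0.0151).

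Voltage-gated channels among the 12 were the potassium channel genes *Kcnc2* and *Kcng4* and the sodium channel gene *Scn9a*. *Kcnc2* was at 11.7 ± 5.11 CPM in ND and 2.40 ± 0.999 CPM in LID (mean ± SD, n = 4, log2 -2.29 ± 0.36 SE, edgeR adjusted p = 4.17e-04). *Kcng4* had log2 -1.96 ± 0.48 SE, edgeR adjusted p = 0.00830. *Scn9a* had log2 -1.97 ± 0.36 SE, edgeR adjusted p = 0.00117, and it overlaps *Gm13629*. *Fras1*, an extracellular matrix protein of basement membranes, was at 36.4 ± 7.22 CPM in ND and 9.13 ± 1.70 CPM in LID (log2 -2.00 ± 0.18 SE, edgeR adjusted p = 4.96e-06). The differences of *Kcnc2* and *Fras1* were -1.65 (edgeR adjusted p = 0.0385) and -1.12 (q = 0.00857), both below 0. *Rai2*, a nuclear protein induced by retinoic acid, had log2 -1.94 ± 0.44 SE, edgeR adjusted p = 0.00607. *Rhbdl3*, a rhomboid-like protein, had log2 -1.85 ± 0.19 SE, edgeR adjusted p = 1.05e-05.

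Interferon-inducible genes made up the other 3. *Iigp1* was at 28.3, 60.9, 35.7 and 39.98 CPM in ND and 11, 12.3, 7.49 and 12 CPM in LID (log2 -1.95 ± 0.30 SE, edgeR adjusted p = 3.89e-04). *Tgtp1* was at 19.3, 31.7, 26.6 and 20.6 CPM in ND and 3.69, 7.94, 6.93 and 7.01 CPM in LID (log2 -1.95 ± 0.24 SE, edgeR adjusted p = 5.20e-05), and its near-identical copy *Tgtp2* makes the assignment of its reads uncertain. *Ifi209* was at 5.14, 5.10, 4.34 and 27.2 CPM in ND and 2.53, 2.67, 2.52 and 3.06 CPM in LID (log2 -1.96 ± 0.48 SE, edgeR adjusted p = 0.00875). ND 4 was far above the rest, and without it the log2 fold change of *Ifi209* was -0.86 (edgeR adjusted p = 0.00239). With 1 mouse left out, the call of the difference was lost for *Shisa9* (edgeR adjusted p = 0.0539 without WT(LID) 3) and *Kcnc2* (10 mice, up to 0.0786).

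Genes of thyroid hormone synthesis responded in part. Of this list, 5 of 15 tested were higher and 1 lower (median 0.36, all genes -0.033, 2 lower without ND 4), where the median is of log2 fold changes. These are 33.3 and 6.67 percent, beside 13.1 and 12.3 percent of all genes, so the lower share is below that of all genes. In WT 9 were higher and 2 lower (median 0.80), beside 20.9 and 20.8 percent of all genes. The difference between genotypes was below 0 for 5 (median -0.46), beside 7.41 percent of all genes. *Slc5a5*, the sodium iodide symporter, was at 11, 8.43, 9.66 and 15.8 CPM in ND and 15, 20.2, 16 and 15.8 CPM in LID. The groups overlapped through ND 4 (log2 0.58 ± 0.23 SE, edgeR adjusted p = 0.0806), and without that mouse the log2 fold change was 0.80 (q = 0.0173). Wild type mice had 182, 187, 81.8 and 132 CPM on the normal and 1898, 2111, 2178 and 1927 CPM on the low iodine diet, a rise of 3.80 on the log2 scale (edgeR adjusted p = 3.80e-08), and the difference was -3.22 (q = 1.86e-05).

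The TSH receptor gene *Tshr* was at 281, 234, 252 and 226 CPM in ND and 588, 581, 733 and 616 CPM in LID. It was higher in each mouse on the low iodine diet and the groups did not overlap (log2 fold change 1.34 ± 0.26 SE, edgeR adjusted p = 0.00181), with 1.54 in WT (q = 2.69e-04) and a difference of -0.20 (q = 0.781). *Slc26a4*, the anion exchanger pendrin, was at 0.356 ± 0.124 CPM in ND and 1.12 ± 0.102 CPM in LID (mean ± SD, n = 4, log2 1.69 ± 0.29 SE, edgeR adjusted p = 6.81e-04), low throughout, with all LID mice above all ND mice. *Iyd*, which recovers iodide from iodotyrosines, had log2 0.49 ± 0.13 SE, edgeR adjusted p = 0.0116. *Slc5a8*, a monocarboxylate transporter of the apical membrane, had log2 1.10 ± 0.33 SE, edgeR adjusted p = 0.0255. The dual oxidase maturation factor *Duoxa2* was at 66.4, 76.5, 86.2 and 47.9 CPM in ND and 39.9, 50.9, 49.4 and 40.9 CPM in LID and fell (log2 -0.61 ± 0.17 SE, edgeR adjusted p = 0.0133), although ND 4 lay within the range of LID. In WT *Duoxa2* had a log2 fold change of 0.80 (edgeR adjusted p = 0.00121), and the difference was -1.41 (q = 0.00101).

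Members of the list that were not called included *Tg*, the most abundant per kilobase, at 117883, 176731, 162973 and 124612 CPM in ND and 112324, 77189.8, 140345 and 96912 CPM in LID (log2 -0.45 ± 0.23 SE, edgeR adjusted p = 0.167). Its groups overlapped. The oxidase *Duox2* had a log2 fold change of -0.37 (edgeR adjusted p = 0.157), or -0.51 (q = 0.0482) without ND 4, and the difference from WT was -0.92 (q = 0.0341). Values of the rest were *Duox1* (log2 -0.35, edgeR adjusted p = 0.557), *Duoxa1* (log2 -0.70, q = 0.106), *Slc26a7* (log2 -0.018, q = 0.959), *Ano1* (log2 0.66, q = 0.106), *Kcne2* (log2 0.36, q = 0.657) and *Kcnq1* (log2 0.06, q = 0.852). *Ano1*, a chloride channel implicated in iodide efflux, had no overlap between groups, and blocking on replicate number in the 8 mice gave it an edgeR adjusted p = 0.0168. The difference between genotypes was called below 0 for *Kcnq1* (log2 -1.02, edgeR adjusted p = 0.0285). The call depended on single mice for *Slc5a8* (5 mice, up to edgeR adjusted p = 0.0576, 0.0571 without ND 4). Single mice decided the call of the difference for *Duox2* (9 mice, up to edgeR adjusted p = 0.0704) and *Kcnq1* (6 mice, up to 0.0603).

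**Figure D4:**
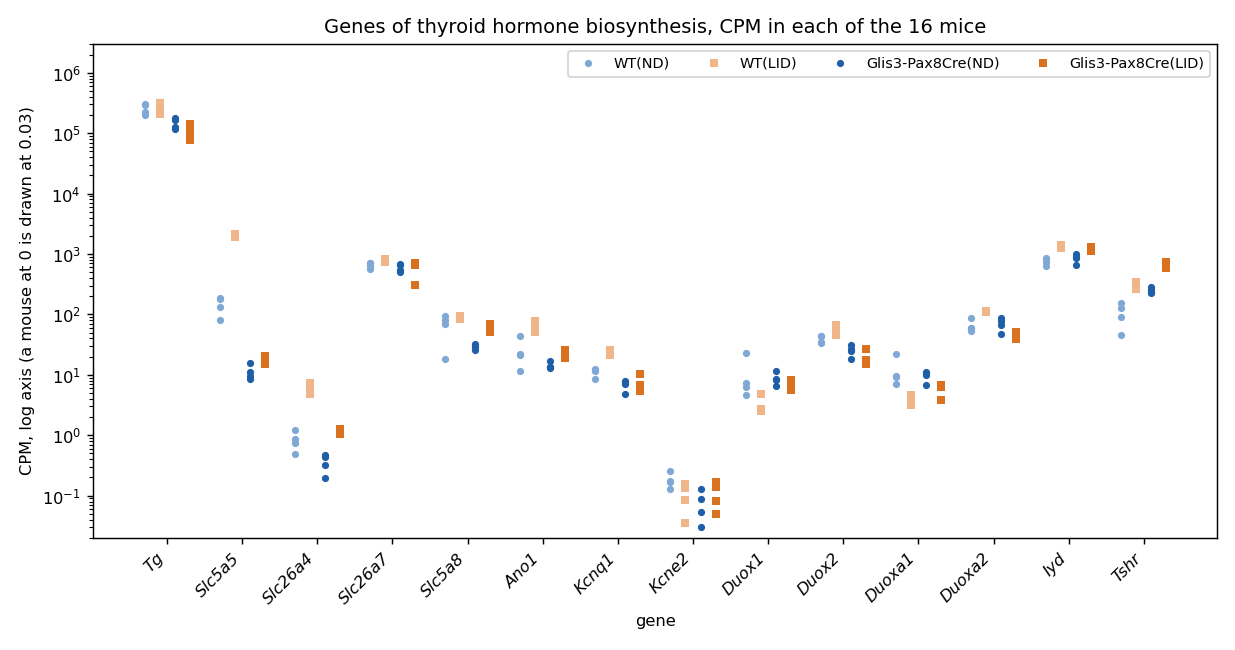
CPM (logarithmic axis, 0 drawn at 0.03) of 14 genes of thyroid hormone synthesis in each of the 16 mice of WT(ND), WT(LID), ND and LID. *Slc5a5* lies between 8.43 and 20.2 CPM in all 8 *Glis3*-deficient mice and is higher in each WT(LID) mouse.

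Of the thyroid transcription factors and GLIS family genes, 2 of 8 tested were higher and 1 lower (median -0.062, all genes -0.033). These are 25 and 12.5 percent, beside 13.1 and 12.3 percent of all genes. *Hhex*, a homeobox factor of the follicular lineage, was called higher, and the groups did not overlap (log2 0.92 ± 0.17 SE, edgeR adjusted p = 0.00143). *Tbx1*, a T-box factor of pharyngeal tissue, was called lower with overlapping groups (log2 -1.51 ± 0.40 SE, edgeR adjusted p = 0.0117). For *Nkx2-1*, the most abundant of the list per kilobase, mean levels were 404 ± 90.8 CPM in ND and 406 ± 28.8 CPM in LID (mean ± SD, n = 4), and its log2 fold change was 0.00712 (edgeR adjusted p = 0.978). The remaining values were *Pax8* (log2 -0.08, edgeR adjusted p = 0.848), *Foxe1* (log2 -0.11, q = 0.702) and *Glis1* (log2 -0.96, q = 0.0628).

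Of deiodinases, hormone transporters and receptors, 2 of 12 tested were higher and 3 lower (median -0.39, all genes -0.033, 4 higher and 5 lower without ND 4), or 16.7 and 25 percent beside 13.1 and 12.3 percent of all genes. *Dio1*, which converts thyroxine to its active form, was the most abundant. It rose with no overlap (log2 0.52 ± 0.11 SE, edgeR adjusted p = 0.00358), by less than in WT (log2 1.72), with a difference of -1.20 (q = 1.63e-04). Further members called were *Slc3a2* (log2 0.76, edgeR adjusted p = 0.0114), *Slc7a8* (log2 -0.86, q = 0.00648) and *Ttr* (log2 -0.90), which are amino acid transporters and the carrier transthyretin. When 1 mouse was left out, the call ended for *Ttr* (9 mice, up to edgeR adjusted p = 0.113), and it ended with a block for *Ttr* (q = 0.0763).

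In the list of TSH receptor and cAMP signalling, 11 of 40 tested were higher and 5 lower (median 0.064, all genes -0.033, 3 lower without ND 4). These are 27.5 and 12.5 percent, beside 13.1 and 12.3 percent of all genes, so the lower share is near that of all genes. The count of lower members ranged from 0 (a fit of the 8 mice alone) to 8 (library size as the only scaling). *Tshr* is given above. The phosphodiesterase *Pde10a* and the protein kinase A subunit *Prkar2b* rose, *Pde10a* (log2 1.42, edgeR adjusted p = 0.00177) and *Prkar2b* (log2 1.42, q = 8.67e-04), the latter with a difference of 1.56 (q = 0.00842) from WT. In WT 17 members were higher and 7 lower, and the difference was above 0 for 2 and below 0 for 5 (median -0.14). All 5 lower members were *Adcy1* (log2 -1.41), *Pkib* (log2 -1.04), *Adcy7* (log2 -1.03), *Gnas* (log2 -0.38) and *Crtc3* (log2 -0.31), which are adenylate cyclases, an inhibitor of protein kinase A, the stimulatory G protein subunit and a CREB coactivator. The log2 of *Adcy1* was -0.36 and that of *Adcy7* -0.42 without ND 4. Of immediate early and NR4A genes, 4 of 26 tested were higher and 1 lower (median 0.058, 6 higher without ND 4): *Sik1* (log2 1.01, edgeR adjusted p = 0.00249), *Dusp1* (log2 0.84, q = 0.0257), *Ier3* (log2 0.49), *Nr4a2* (log2 0.48) and *Klf2* (log2 -0.66, q = 0.0263). The shares of immediate early and NR4A genes, 15.4 and 3.85 percent, are near or below those of all genes (13.1 and 12.3 percent). In WT 10 were higher, and the difference was above 0 for 1 and below 0 for 5 (median -0.53), among them *Klf2* (-1.11, edgeR adjusted p = 0.0186). Without 1 mouse, the call ended for *Adcy1* (12 mice, up to edgeR adjusted p = 0.359 without ND 4), *Pkib* (4 mice, up to 0.0690), *Adcy7* (5 mice with ND 4, up to 0.0774), *Gnas* (7 mice, up to 0.119), *Crtc3* (6 mice with ND 4, up to 0.115), *Dusp1* (5 mice, up to 0.0798, 0.0604 without ND 4), *Ier3* (13 mice with ND 4, up to 0.0966) and *Klf2* (5 mice, up to 0.0903), and it ended with a block for *Adcy1* (q = 0.0861 and 0.0722 in 16), *Adcy7* (0.0683), *Gnas* (0.0665 and 0.0551 in 16), *Crtc3* (0.105), *Ier3* (0.0690) and *Nr4a2* (0.0736).

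The 3 gene lists named or shown in the study were chosen on these samples, so their directions are not independent evidence. Of the TSH-induced genes, 2 of 7 tested were higher and 1 lower (median 0.25, all genes -0.033, 3 higher and 2 lower without ND 4), and in WT 7 were higher (median 3.26), and the difference was below 0 for 6 (median -2.08), or for 7 without ND 4. Apart from genes given above, *Sod3*, an extracellular superoxide dismutase and the most abundant, rose in all LID mice (log2 1.51 ± 0.17 SE, edgeR adjusted p = 2.56e-05), less than in WT with a difference of -2.08 (q = 5.59e-05). *Adm2*, an adrenomedullin family peptide, had overlapping groups (log2 0.25 ± 0.39 SE, edgeR adjusted p = 0.672), whereas the WT value was 7.82 (q = 8.29e-09), with a difference of -7.57 (q = 1.41e-06). For the cadherin *Cdh13* the value was 0.20 (edgeR adjusted p = 0.238), with a difference of -3.06 (q = 1.48e-07).

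Of the matrix and chemokine genes, 4 of 7 tested were higher (median 0.50, all genes -0.033), and in WT 7 were higher (median 2.20), with a difference below 0 for 6 (median -1.70), or for 7 without ND 4. The chemokine *Ccl2* rose (log2 1.56 ± 0.33 SE, edgeR adjusted p = 0.00337). *Ccl7* had log2 1.49 ± 0.26 SE, edgeR adjusted p = 7.89e-04. Both rose without overlap, and less than in WT, with differences of -3.26 (edgeR adjusted p = 3.30e-04) and -2.42 (q = 4.49e-04). Collagens called were *Col18a1* (log2 1.08, edgeR adjusted p = 0.00103) and *Col4a1* (log2 0.50, q = 0.0422), and uncalled members were *Col6a2* (log2 0.066, q = 0.833), *Col8a1* (log2 -0.20, q = 0.461) and *Itga2* (log2 0.22, q = 0.541). The difference of the integrin *Itga2* was -3.78 (edgeR adjusted p = 6.22e-06), and those of *Col4a1* (log2 difference -1.70, q = 3.14e-04), *Col6a2* (log2 -1.07, q = 0.0199) and *Col8a1* (log2 -1.51, q = 0.00167) were likewise below 0. Leaving out 1 mouse ended the call for *Col4a1* (11 mice, up to edgeR adjusted p = 0.141, 0.103 without ND 4).

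**Figure D5:**
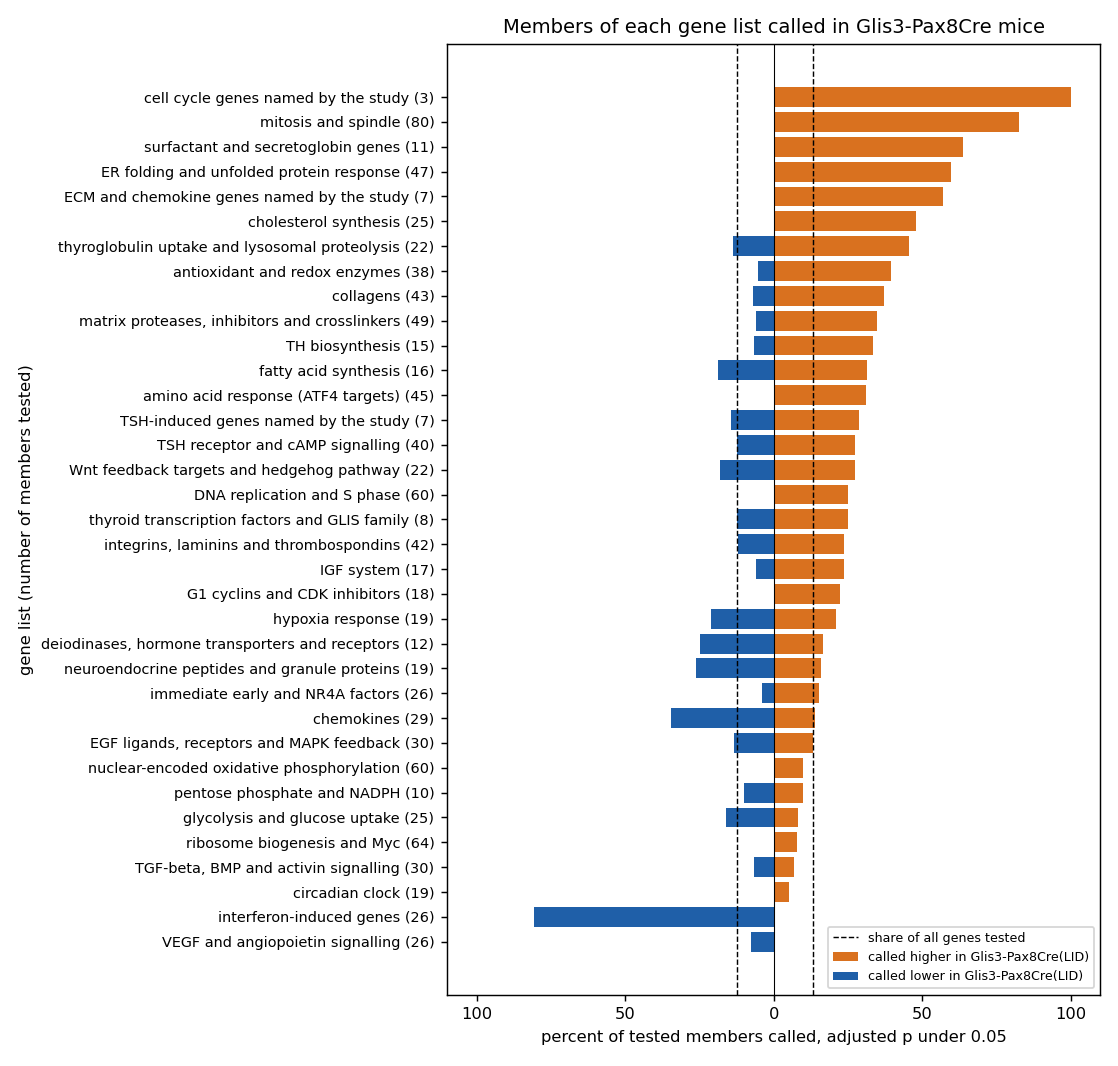
Percent of tested members of each of the 35 gene lists called higher (orange, to the right) or lower (blue, to the left) in LID than in ND at an adjusted p under 0.05. Dashed lines mark the share of all tested genes, 13.1 percent higher and 12.3 percent lower; the cell cycle genes named by the study lie farthest to the right, before mitosis, and interferon-induced genes farthest to the left.

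Mitosis genes rose. Of mitosis and spindle genes, 66 of 80 tested were higher (median 1.46, all genes -0.033), and without ND 4, 80 higher, median 2.33. Their summed level was 812, 876, 837 and 2974 CPM in ND and 2720.0, 3898, 3654 and 4023 CPM in LID. ND 4 stood above the other ND mice and within the range of LID, and the part of its thymus transcripts in this was not tested. Of DNA replication genes, 15 of 60 tested were higher (median 0.47), and without ND 4, 52 higher, median 0.87. A fit of the 8 mice alone called 32 mitosis and 3 replication genes higher. In WT 80 mitosis and 54 replication genes were higher (medians 2.97 and 1.35), beside 20.9 percent of all genes. The difference was below 0 for 8 and 7 (medians -1.34 and -0.80), beside 7.41 percent of all genes. Without ND 4 it was below 0 for 25 and 17 (medians -0.57 and -0.42).

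The ubiquitin conjugating enzyme *Ube2c* of the anaphase-promoting complex was at 7.28, 7.09, 6.44 and 30.1 CPM in ND and 48.2, 88.5, 64.3 and 79.3 CPM in LID. All LID mice were above all ND mice, of which ND 4 was the highest (log2 2.45 ± 0.45 SE, edgeR adjusted p = 0.00152). Cyclin B1 (*Ccnb1*) rose as well (log2 2.37 ± 0.48 SE, edgeR adjusted p = 0.00288). The spindle protein *Knstrn* had log2 2.34 (edgeR adjusted p = 1.14e-04), and all 3 cell cycle genes named by the study rose (2 in the fit of the 8 mice alone, without *Ccnb2*), with *Ccnb2* (log2 1.80, q = 0.00650) and *Cdca2* (log2 1.84, q = 8.15e-05) (list median 1.84, all genes -0.033). Among replication genes, thymidine kinase rose, *Tk1* (log2 1.01, edgeR adjusted p = 3.89e-04). *Pcna*, the most abundant, had overlap through ND 4 (log2 0.36 ± 0.24 SE, edgeR adjusted p = 0.294), and without ND 4 it was 0.81 (q = 6.56e-06).

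Of 68 mitosis genes with a listed promoter, at least 1 promoter held TTTGAA (CHR) in 46 (67.6 percent, beside 14.9 percent of tested genes and 17.9 percent of promoters counted singly), CCAAT in 48 (70.6 percent, beside 42.1 and 37.4 percent) and an E2F site (TTTSGCGC, S being G or C) in 5.88 percent, beside 1.59 and 0.813 percent. Of G1 cyclins and inhibitors, 4 of 18 tested were higher (median 0.15, all genes -0.033, 7 higher without ND 4): *Cdkn1a* (log2 0.97, edgeR adjusted p = 0.0192), *Cdkn2c* (log2 0.81, q = 0.00171), *Ccnd1* (log2 0.47, q = 0.00598) and *Cdk4* (log2 0.34). Cyclin D1 (*Ccnd1*) rose less than in WT, with a difference of -1.05 (edgeR adjusted p = 4.33e-04). With 1 mouse left out, the call was lost for *Cdkn1a* (3 mice, up to edgeR adjusted p = 0.0645, 0.0503 without ND 4), and it ended with a block for *Cdk4* (q = 0.0785).

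Of genes of protein folding in the endoplasmic reticulum, 28 of 47 tested were higher (median 0.49, all genes -0.033, 22 higher and 1 lower without ND 4), with a range from 17 (without LID 3) to 32 (without LID 4). For the translocon-associated *Ssr2*, each LID mouse was above each ND mouse (log2 1.15 ± 0.13 SE, edgeR adjusted p = 2.06e-05). The chaperone *Hyou1* and calreticulin (*Calr*), the most abundant, rose, *Hyou1* (log2 1.02, edgeR adjusted p = 0.00733) and *Calr* (log2 0.75, q = 0.0322). *Ssr2* rose more than in WT with a difference of 0.75 (edgeR adjusted p = 0.0135). Of amino acid response genes, 14 of 45 tested were higher (median 0.16), ranging from 9 (library size as the only scaling) to 19 (without ND 4). The stress cytokine *Gdf15* rose (log2 2.73 ± 0.29 SE, edgeR adjusted p = 2.05e-05), and the folate enzyme *Aldh1l2* had log2 1.94 (q = 1.90e-05). *Slc3a2*, given above, was the most abundant. Of ribosome biogenesis genes, 5 of 64 tested were higher (median 0.10): *Nhp2* (log2 0.46, edgeR adjusted p = 0.0157), *Tsr1* (log2 0.36, q = 0.0245), *Nop16* (log2 0.32, q = 0.0111), *Bop1* (log2 0.31) and *Mybbp1a* (log2 0.20). This share is below that of all genes (13.1 percent), and the number ranged from 0 (library size as the only scaling) to 17 (without ND 4). The call depended on single mice for *Calr* (4 mice, up to edgeR adjusted p = 0.0960, 0.0608 without ND 4), *Nhp2* (2 mice, up to 0.0526), *Tsr1* (2 mice, up to 0.0916), *Bop1* (3 mice, up to 0.0830) and *Mybbp1a* (11 mice, up to 0.126), and it ended with a block for *Nhp2* (q = 0.0993), *Tsr1* (0.0640), *Nop16* (0.0799), *Bop1* (0.112 and 0.0504 in 16) and *Mybbp1a* (0.198 and 0.0754 in 16).

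Of genes of thyroglobulin uptake and lysosomal proteolysis, 10 of 22 tested were higher and 3 lower (median 0.35, all genes -0.033). These are 45.5 and 13.6 percent, beside 13.1 and 12.3 percent of all genes, so the lower share is near that of all genes. Cathepsins L, B and D rose, with *Ctsl* at log2 1.11 ± 0.12 SE, edgeR adjusted p = 1.16e-05, followed by *Ctsb* (log2 0.83, q = 9.57e-04) and *Ctsd* (log2 0.65, q = 0.00172), of which cathepsin D (*Ctsd*) was the most abundant. The 3 lower members were *Cubn* (log2 -1.002), *Ctss* (log2 -0.97, edgeR adjusted p = 3.65e-05) and *Asgr1* (log2 -0.56). Single mice decided the call for *Asgr1* (5 mice, up to edgeR adjusted p = 0.0998), and it ended with a block for *Cubn* (q = 0.0585).

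Lipid synthesis genes moved in part. Of cholesterol synthesis genes, 12 of 25 tested were higher (median 0.36, all genes -0.033), among them the regulator *Insig1* (log2 1.04, edgeR adjusted p = 5.19e-04). *Insig1* differed from WT (difference 1.499, edgeR adjusted p = 7.52e-04). Of fatty acid synthesis genes, 5 of 16 tested were higher and 3 lower (median -0.10, 3 higher without ND 4). These are 31.25 and 18.75 percent, beside 13.1 and 12.3 percent of all genes. The count of lower members was 0 without ND 1 and 0 without LID 1. In WT 3 were higher and 9 lower (median -1.04), with a difference above 0 for 8 (median 1.14), or for 5 without ND 4. The sterol and lipid regulator *Srebf1* rose (log2 1.67 ± 0.092 SE, edgeR adjusted p = 7.36e-08). The desaturase *Scd2* had log2 1.66 ± 0.11 SE, edgeR adjusted p = 3.05e-07. Others higher were *Elovl6* (log2 1.23, edgeR adjusted p = 2.77e-04), *Fads2* (log2 0.42) and *Elovl1* (log2 0.32), and lower were *Thrsp* (log2 -1.11), *Acss2* (log2 -0.78) and *Acly* (log2 -0.47). *Scd1*, the most abundant, had log2 -0.60 (edgeR adjusted p = 0.151, or 0.0425 with a replicate block in the 8 mice). Differences above 0 were called for *Srebf1* (log2 difference 1.06, edgeR adjusted p = 7.34e-05), *Scd2* (log2 1.12, q = 1.98e-04), *Elovl6* (log2 1.61, q = 8.96e-04) and *Fads2* (log2 1.26, q = 2.70e-04). Fat markers summed to 1136, 915, 659 and 564 CPM in ND and 1072, 1260.0, 1042 and 565 CPM in LID. In WT they summed to 977, 1967, 1101 and 1791 CPM on the normal and 825, 487, 525 and 663 CPM on the low iodine diet. There 8 of 10 fat markers were lower, and the difference was above 0 for 6 (median 1.46), or for 4 without ND 4. Their part in these results was not tested. When 1 mouse was left out, the call ended for *Fads2* (4 mice with ND 4, up to edgeR adjusted p = 0.0735), *Elovl1* (3 mice with ND 4, up to 0.0724), *Thrsp* (3 mice, up to 0.0617), *Acss2* (4 mice, up to 0.0864) and *Acly* (10 mice, up to 0.126), and it ended with a block for *Fads2* (q = 0.0949), *Elovl1* (0.0748) and *Acly* (0.0539 in 16).

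Shares of glycolysis, pentose phosphate and respiratory chain genes called were near or below those of all genes (13.1 percent higher and 12.3 percent lower). Of glycolysis and glucose uptake genes, 2 of 25 tested were higher and 4 lower (median -0.15, all genes -0.033). Higher were *Slc2a1* (log2 0.59, edgeR adjusted p = 6.99e-04) and *Aldoc* (log2 0.57). Lower were *Slc2a3* (log2 -1.40, or -0.68 without ND 4), *Pdk1* (log2 -0.63, edgeR adjusted p = 0.00262), *Eno2* (log2 -0.62, q = 0.0173) and *Ldhb* (log2 -0.28). Of hypoxia response genes, 4 of 19 tested were higher and 4 lower (median -0.065), which apart from *Slc2a1* and *Pdk1* were *P4ha2* (log2 1.01, edgeR adjusted p = 1.14e-05), *Ero1l* (log2 0.87, q = 8.76e-05), *P4ha1* (log2 0.52), *Car12* (log2 -0.98), *Egln1* (log2 -0.58) and *Hif1a* (log2 -0.37). Carbonic anhydrase *Car12* rose in WT (log2 2.74) and the difference was -3.72 (edgeR adjusted p = 1.38e-05). Of pentose phosphate genes, 1 of 10 tested were higher and 1 lower (median 0.072, 0 higher without ND 4), *Idh2* (log2 0.24, edgeR adjusted p = 0.0406) and *Tkt* (log2 -0.53, q = 0.0346). Of antioxidant genes, 15 of 38 tested were higher and 2 lower (median 0.21). They included *Sod3* and *Gpx7* (log2 1.70, edgeR adjusted p = 8.66e-06), *Mt1* (log2 1.21, q = 1.63e-04) and *Mt2* (log2 0.92, q = 1.28e-04), a glutathione peroxidase and metallothioneins, with *Mt2* the most abundant. The lower members were *Txnip* (log2 -1.05) and *Txnrd3* (log2 -0.43). Of nuclear-encoded respiratory chain genes, 6 of 60 tested were higher (median 0.19, 3 higher without ND 4), ranging from 1 (library size as the only scaling) to 9 (DESeq2), with *Cox4i1* (log2 0.70, edgeR adjusted p = 0.00143) and *Cox7a2* (log2 0.43, q = 0.0238). Without 1 mouse, the call ended for *Eno2* (2 mice, up to edgeR adjusted p = 0.0549), *Ldhb* (2 mice, up to 0.0718), *Hif1a* (9 mice, up to 0.118), *Idh2* (12 mice, up to 0.104 without ND 4), *Tkt* (6 mice, up to 0.1) and *Cox7a2* (3 mice, up to 0.0794, 0.0610 without ND 4), and it ended with a block for *Aldoc* (q = 0.0941), *Ldhb* (0.101), *Hif1a* (0.0882 and 0.0619 in 16), *Idh2* (0.161 and 0.0565 in 16), *Txnrd3* (0.0725) and *Cox7a2* (0.0744).

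The matrix lists held larger shares of higher genes than all genes did (13.1 percent) and no larger shares of lower ones (12.3 percent). Of collagens, 16 of 43 tested were higher and 3 lower (median 0.34, all genes -0.033), with *Col5a1* (log2 1.49, edgeR adjusted p = 2.97e-07), *Col7a1* (log2 1.63, q = 1.02e-05), *Col1a1* (log2 1.01), *Col3a1* (log2 0.91, q = 0.00318), *Col1a2* (log2 0.89) and *Col25a1* (log2 1.65, q = 0.00691) among the higher and *Col22a1* (log2 -2.68), *Col9a1* (log2 -0.91, q = 0.0337) and *Col23a1* (log2 -0.88) lower. *Col4a1*, given above, was the most abundant. The difference between genotypes was above 0 for 4 collagens and below 0 for 11 (median -0.59), or below 0 for 17 without ND 4. Of all genes, 4.43 percent had a difference above 0 and 7.41 percent below. In contrast to WT, where log2 was 0.27, the anchoring collagen *Col7a1* rose (difference 1.36, edgeR adjusted p = 0.00126). Of integrins, laminins and thrombospondins, 10 of 42 tested were higher and 5 lower (median 0.000581): *Thbs3* (log2 1.96, edgeR adjusted p = 4.40e-05), *Lamb1* (log2 1.39, q = 3.18e-05), *Itga3* (log2 1.32, q = 1.08e-05) and *Itgb1* (log2 0.36, q = 0.00574) higher, *Itgb1* being the most abundant, and *Lama1* (log2 -1.15), *Lamb3* (log2 -1.001), *Itgax* (log2 -0.85), *Lamc3* (log2 -0.83) and *Itga4* (log2 -0.82) lower. Of matrix proteases, inhibitors and crosslinkers, 17 of 49 tested were higher and 3 lower (median 0.35, 5 lower without ND 4). Tissue plasminogen activator, a crosslinker and *Sparc*, the most abundant, rose: *Plat* (log2 1.73, edgeR adjusted p = 5.49e-07), *Loxl4* (log2 1.44, q = 0.00613) and *Sparc* (log2 0.52, q = 0.0133). Lower were *Mmp15* (log2 -1.22), *Mmp16* (log2 -0.68) and *Plau* (log2 -0.55). The difference was above 0 for 1 and below 0 for 12 integrins, laminins and thrombospondins (median -0.50). For matrix proteases, inhibitors and crosslinkers it was above 0 for 1 and below 0 for 19 (median -0.54). Leaving out 1 mouse ended the call for *Col9a1* (6 mice, up to edgeR adjusted p = 0.0885), *Col23a1* (5 mice, up to 0.0841), *Lama1* (4 mice, up to 0.0730) and *Lamc3* (3 mice, up to 0.0723), and it ended with a block for *Itgb1* (q = 0.0770) and *Mmp16* (0.0512).

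Vascular genes responded less than in WT. Of VEGF and angiopoietin genes, 0 of 26 tested were higher and 2 lower (median -0.042, all genes -0.033). These shares, 0 and 7.69 percent, are below those of all genes (13.1 and 12.3 percent). In WT 14 were higher and 2 lower (median 0.66), with a difference below 0 for 14 (median -1.07), beside 7.41 percent of all genes. The apelin receptor *Aplnr* had log2 -1.03 ± 0.16 SE, edgeR adjusted p = 3.68e-04, and the angiopoietin receptor *Tek* had log2 -0.44 (q = 0.0122). Their differences from WT were -1.66 (edgeR adjusted p = 2.22e-04) and -1.57 (q = 2.41e-05). *Vegfa*, the most abundant, had log2 -0.20 (edgeR adjusted p = 0.192). Endothelial markers summed to 1274, 1742, 1392 and 1193 CPM in ND and 1130.0, 1467, 1442 and 1116 CPM in LID, with overlap. Of these, 2 of 11 tested were lower (median -0.13, 3 lower without ND 4), *Tek* and *Pecam1* (log2 -0.35), and the difference was below 0 for 10 (median -1.52). *Plvap*, the most abundant, had log2 -0.27 (edgeR adjusted p = 0.303) and a difference of -1.68 (q = 7.80e-04). Of pericyte and smooth muscle markers, 2 of 9 tested were higher and 1 lower (median 0.17): *Cspg4* (log2 1.32), *Tagln* (log2 0.71) and *Kcnj8* (log2 -0.78), with *Rgs5* the most abundant (log2 -0.099, edgeR adjusted p = 0.706). They summed to 664, 774, 649 and 568 CPM in ND and 667, 766, 691 and 533 CPM in LID. Fibroblast markers summed to 1084, 995, 746 and 554 CPM in ND and 1461, 1592, 1369 and 891 CPM in LID, with *Col3a1* the most abundant, and 3 of 8 tested were higher and 1 lower (median 0.19), the lower being *Pdgfra* (log2 -0.73). The part of cell number in these results was not tested. With 1 mouse left out, the call was lost for *Pecam1* (10 mice, up to edgeR adjusted p = 0.162), *Kcnj8* (5 mice, up to 0.0992) and *Pdgfra* (4 mice, up to 0.0582), and it ended with a block for *Kcnj8* (q = 0.0716 in 16).

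Interferon-induced genes fell. Of this list, 21 of 26 tested were lower (median -0.95, all genes -0.033), without ND 4 20 were lower (median -0.72), and in WT 15 were lower (median -0.49). Called lower were *Ifit1* (log2 -1.74, edgeR adjusted p = 0.00103), *Oasl2* (log2 -1.57, q = 3.37e-05) and *Gbp2* (log2 -1.45, q = 2.67e-05), and *B2m*, the most abundant, had log2 -0.17 (q = 0.231). Of chemokines, 4 of 29 tested were higher and 10 lower (median -0.59), the lower ranging from 4 (a fit of the 8 mice alone) to 12 (DESeq2). These are 13.8 and 34.5 percent, beside 13.1 and 12.3 percent of all genes, so the higher share is near that of all genes. Beside *Ccl2* and *Ccl7*, the mucosal chemokine *Cxcl17* rose (log2 2.68 ± 0.33 SE, edgeR adjusted p = 5.01e-05), less than in WT (-2.44, q = 0.00310). Further chemokines were *Pf4* (log2 0.70, edgeR adjusted p = 0.00996), *Cxcl13* (log2 -1.17, q = 0.00135) and *Cxcl12* (log2 0.053, q = 0.697), the last being the most abundant and not called. Macrophage markers summed to 614, 598, 568 and 547 CPM in ND and 482, 479.8, 453 and 369 CPM in LID, lower in each LID mouse, and 5 of 9 tested were lower (median -0.42): *C1qb* (log2 -0.57), *C1qc* (log2 -0.57), *C1qa* (log2 -0.54), *Adgre1* (log2 -0.54) and *Csf1r* (log2 -0.41). *Lyz2*, the most abundant, had log2 -0.42 (edgeR adjusted p = 0.0834). Mast cell markers summed to 57.9, 117, 96.6 and 46.7 CPM in ND and 47.8, 50.1, 55.1 and 37.7 CPM in LID. Of mast cell markers, 4 of 5 tested were higher and 1 lower (median 1.40): the proteases *Cpa3* (log2 1.45), *Cma1* (log2 1.43), *Tpsb2* (log2 1.40) and *Mcpt4* (log2 1.32) higher, and lower *Kit* (log2 -1.11, edgeR adjusted p = 0.0133), the most abundant. *Kit* averaged 85.1 CPM in ND 1 to ND 3 and each of these proteases between 1.28 and 1.51 CPM, so the sums are mostly *Kit*. The part of immune cell number was not tested. A call was gained for *B2m* (edgeR adjusted p = 0.0392 without LID 2) and *Lyz2* (0.0313 with a replicate block in the 8 mice). The call depended on single mice for *Csf1r* (5 mice, up to edgeR adjusted p = 0.0978).

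Of growth factor lists, those of EGF and TGF-beta had shares called near or below those of all genes (13.1 and 12.3 percent). Of EGF ligands, receptors and MAPK feedback genes, 4 of 30 tested were higher and 4 lower (median 0.014, all genes -0.033). Amphiregulin (*Areg*), the most abundant, was higher in all LID mice (log2 2.86 ± 0.57 SE, edgeR adjusted p = 0.00277). Other called members were *Ereg* (log2 2.91), *Btc* (log2 1.63, edgeR adjusted p = 9.72e-06), *Egfr* (log2 0.61), *Fgf2* (log2 -1.03), *Egf* (log2 -0.998), *Fgf1* (log2 -0.76, q = 0.0105) and *Hgf* (log2 -0.75). Of the IGF system, 4 of 17 tested were higher and 1 lower (median 0.09): *Igfbp2* (log2 1.63), *Igfbp5* (log2 0.94, edgeR adjusted p = 0.00408), *Igf1r* (log2 0.84, q = 2.52e-04), *Igf2r* (log2 0.65, q = 0.00974) and *Irs1* (log2 -0.65), and *Igfbp7*, the most abundant, was not called (log2 -0.04). Of TGF-beta, BMP and activin genes, 2 of 30 tested were higher and 2 lower (median -0.019, 1 higher and 3 lower without ND 4): *Fstl3* (log2 0.86), *Acvr1* (log2 0.33, edgeR adjusted p = 0.0363), *Inha* (log2 -0.66, q = 0.0138) and *Tgfbr3* (log2 -0.48, q = 0.00693), with *Id3* (log2 -0.075) the most abundant and not called. Of Wnt feedback and hedgehog genes, 6 of 22 tested were higher and 4 lower (median 0.073). These counts were 3 and 3 without LID 1, and 2 and 2 in the fit of the 8 mice alone. The hedgehog antagonist *Hhip*, the most abundant, had log2 2.35 ± 0.28 SE, edgeR adjusted p = 4.76e-05. Others were *Gli2* (log2 0.88, edgeR adjusted p = 6.54e-04), *Notum* (log2 -1.08), *Axin2* (log2 -0.75, q = 0.0128), *Smo* (log2 -0.72) and *Sfrp1* (log2 -0.66), and *Gli2* rose less than in WT (-0.99, q = 0.00662). Of clock genes, 1 of 19 tested were higher (median -0.073, 0 higher without ND 4), or 2 higher and 3 lower with a block, *Nfil3* (log2 1.49), and *Nr1d1*, the most abundant, was not called (log2 -0.022). Single mice decided the call for *Egfr* (8 mice with ND 4, up to edgeR adjusted p = 0.109), *Hgf* (0.0520 without ND 1), *Igfbp2* (7 mice, up to 0.114), *Fstl3* (0.0538 without LID 3), *Acvr1* (8 mice, up to 0.124, 0.0930 without ND 4), *Inha* (0.0554 without ND 2), *Notum* (6 mice, up to 0.116) and *Nfil3* (4 mice, up to 0.0750, 0.0583 without ND 4), and it ended with a block for *Egfr* (q = 0.0534 in 16), *Fgf2* (0.0850), *Hgf* (0.0951), *Fstl3* (0.105), *Acvr1* (0.110), *Inha* (0.0582), *Tgfbr3* (0.0542) and *Notum* (0.0868 and 0.0551 in 16).

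Of neuroendocrine peptides and granule proteins, 3 of 19 tested were higher and 5 lower (median -0.41, all genes -0.033, 9 lower without ND 4). These are 15.8 and 26.3 percent, beside 13.1 and 12.3 percent of all genes, so the higher share is near that of all genes. Beside *Cck* and *Ptprn*, *Scg5* rose, and peptides and their processing enzymes were lower: *Scg5* (log2 0.83), *Npy* (log2 -1.63), *Chga* (log2 -1.63, edgeR adjusted p = 0.0455), *Ptprn2* (log2 -0.64), *Pcsk2* (log2 -0.56) and *Cpe* (log2 -0.46). *Calca* (calcitonin), the most abundant here and among C cell markers, had log2 -0.41 (edgeR adjusted p = 0.197), and without ND 4 -0.61 (q = 0.0298). C cell markers summed to 6211, 5649, 4399 and 3600.0 CPM in ND and 3526, 3156, 1805 and 1481 CPM in LID. *Chga* is counted among both C cell and parathyroid markers. It averaged 3055.5 CPM in ND 1 to ND 3, beside 1982.1 CPM for *Calca*, so the C cell sums rest largely on a gene shared with the parathyroid list. Of C cell markers, 1 of 8 tested were higher and 3 lower (median -0.50, 5 lower without ND 4), among them *Chga*, *Slc18a1* (log2 0.95) and *Gfra4* (log2 -0.78). These are 12.5 and 37.5 percent, so the higher share is near that of all genes. Parathyroid hormone (*Pth*), the most abundant parathyroid marker, was lower in each LID mouse than in any ND mouse (log2 -1.72 ± 0.51 SE, edgeR adjusted p = 0.0242). Of parathyroid markers, 4 of 5 tested were lower (median -1.63, 2 lower without ND 4), and no alternative gave more. A fit of the 8 mice alone called 0. Lower beside *Pth* were *Gcm2* (log2 -1.67), *Casr* (log2 -1.35) and *Chga*, and in WT 5 were lower. The part of attached parathyroid tissue and of C cell number was not tested. When 1 mouse was left out, the call ended for *Chga* (11 mice, up to edgeR adjusted p = 0.112, 0.0543 without ND 4), *Pcsk2* (13 mice, up to 0.134), *Cpe* (5 mice, up to 0.107), *Pth* (2 mice, up to 0.0670) and *Gcm2* (13 mice with ND 4, up to 0.119), and it ended with a block for *Chga* (q = 0.0676 in 16) and *Gcm2* (0.0744 in 16).

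Of surfactant and secretoglobin genes, 7 of 11 tested were higher (median 2.08, all genes -0.033), and 3 in a fit of the 8 mice alone. Of tracheal epithelium markers, 4 of 7 tested were higher (median 3.27), and 0 in that fit. No alternative gave more than 7 and 4. Without LID 1 these counts were 4 and 1, and the tracheal median was 1.13. *Scgb1a1* was at 0.0627, 0.0666, 0 and 0.232 CPM in ND and 27.8, 0.846, 0.322 and 2.20 CPM in LID. LID 1 was by far the highest, and ND 1 and ND 3 had under 3 counts, so the size is uncertain (log2 6.402 ± 1.80 SE, edgeR adjusted p = 0.0198). Its log2 fell as low as 3.59 under the alternatives described below. *Bpifa1*, the most abundant tracheal marker, was also called higher (log2 3.80 ± 1.20 SE, edgeR adjusted p = 0.0344). It was at 193 CPM in LID 1 and at 4.80 to 15.0 CPM in the other LID mice. Under the alternatives its log2 fell as low as 1.13. Further members were *Scgb3a2* (log2 6.36), *Scgb3a1* (log2 5.63), *Muc5b* (log2 3.27), *Sftpb* (log2 2.498, edgeR adjusted p = 0.0418), *Muc1* (log2 2.08, q = 0.00467) and *Napsa* (log2 1.26, q = 2.76e-04), and without LID 1 the log2 of the first 3 was 2.93, 3.12 and 1.15. The protease *Napsa* was the most abundant surfactant list member. The part of airway tissue was not tested. Without 1 mouse, the call ended for *Scgb1a1* (2 mice, up to edgeR adjusted p = 0.0765), *Bpifa1* (5 mice, up to 0.287, 0.0530 without ND 4), *Muc5b* (9 mice, up to 0.328) and *Sftpb* (12 mice, up to 0.0893 without ND 4), and it ended with a block for *Bpifa1* (q = 0.125 in 16), *Muc5b* (0.202 and 0.116 in 16) and *Sftpb* (0.0524 in 16).

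Markers of other tissues were tested gene by gene as well. *Tcf7*, the most abundant thymocyte marker, had log2 -2.45 (edgeR adjusted p = 0.361), and 2.93 (q = 0.216) without ND 4. *Prss16*, the most abundant of thymic epithelium, had log2 -1.99 (edgeR adjusted p = 0.426). Called were *Foxn1* (log2 -2.48) and *Cd79a* (log2 -1.08) of thymic epithelium and B cells, *Cidec* (log2 0.93), *Plin4* (log2 0.74), *Cnmd* (log2 2.72) and *Hapln1* (log2 1.58) of fat and cartilage, and *Slc4a1* (log2 2.20) of red cells. Medians were -2.85 (thymocyte), -2.13 (thymic epithelium, 1 of 6 lower), -0.67 (B cell, 1 of 6 lower), 0.39 (fat, 2 of 10 higher), 0.47 (cartilage, 2 of 5 higher and *Col9a1* lower, -0.85 without LID 1 and 1.64 without ND 4) and 1.29 (erythroid, 1 of 2 higher), all genes -0.033. Without ND 4 the thymocyte median was 3.23 and that of thymic epithelium 0.96. Most abundant per kilobase and not called were *Acta1* of skeletal muscle (log2 -0.80), *Cd79b* of B cells (0.082), *Cfd* of fat (0.098), *Krt14* of oesophagus (-1.21), *Alas2* of red cells (0.38) and *Pmp22* of nerve (-0.46). The edgeR test called 0 of 15 thymocyte, 0 of 11 skeletal muscle, 0 of 1 oesophageal and 0 of 7 nerve markers. At an unadjusted p under 0.05 there were 0, 0, 0 and 2, and DESeq2 called 0, 0, 0 and 1. With a block in the 8 mice 5 thymocyte, 2 thymic epithelium, 1 skeletal muscle and 2 fat markers were lower and 4 fat markers higher, and without ND 4 0 thymic epithelium and fat and 2 nerve markers were called. A call was gained for *Pmp22* (edgeR adjusted p = 0.0489 without WT(ND) 3 and 0.00203 without ND 4). Leaving out 1 mouse ended the call for *Foxn1* (9 mice, up to edgeR adjusted p = 0.128 without ND 4), *Cd79a* (5 mice with ND 4, up to 0.0965), *Cidec* (5 mice with ND 4, up to 0.0727) and *Plin4* (4 mice with ND 4, up to 0.0709), and it ended with a block for *Cd79a* (q = 0.0573 and 0.0519 in 16).

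Lists described above held further genes, called or the most abundant. Called were *Pttg1* (log2 1.05, edgeR adjusted p = 1.15e-05), *Brca1* (log2 1.11, q = 0.0172), *Prkar1a* (log2 0.25, q = 0.0142), *Slc7a3* (log2 1.28, q = 0.00249), *Creld2* (log2 0.997, q = 0.0151), *Acat2* (log2 0.77, q = 5.02e-04) and *Cycs* (log2 0.56, q = 0.0216), of mitosis, DNA repair, protein kinase A, amino acid transport, protein folding, cholesterol synthesis and respiration. The difference from WT was above 0 for *Pttg1* (securin), at 0.69 (edgeR adjusted p = 0.00798), and for *Acat2*, at 1.16 (q = 5.55e-04). Not called were *Jund* (log2 0.34), *Ccng1* (0.17), *Npm1* (0.067), *Aldoa* (0.046), *Taldo1* (0.086), *Cox8a* (0.34) and *Glis2* (-0.044). A call was gained for *Cox8a* (edgeR adjusted p = 0.0271 without ND 3 and 0.0462 without LID 1), *Slc5a5* (0.0275 without WT(ND) 3 and 0.0173 without ND 4), *Duox2* (0.0482 without ND 4 and 0.0259 without LID 3), *Duoxa1* (0.0187 without WT(ND) 3) and *Glis1* (0.0296 without ND 3). With 1 mouse left out, the call was lost for *Brca1* (2 mice, up to edgeR adjusted p = 0.0521) and *Cycs* (3 mice, up to 0.0693), and it ended with a block for *Prkar1a* (q = 0.144).

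Genes with the largest differences between genotypes were chosen among those over 2-fold, with an adjusted p under 0.01 and a mean of at least 5 CPM in the 16 mice, 76 above 0 and 331 below 0. Above 0, beside *Ptprn* and *Cck*, were *Lrat* (log2 difference 3.92, edgeR adjusted p = 1.48e-07), *Spon1* (log2 3.63, q = 3.81e-04), *Slc24a3* (log2 3.05, q = 6.43e-05) and *Acaa1b* (log2 2.75, q = 9.21e-04). The retinol acyltransferase *Lrat* had overlapping groups (log2 0.21 ± 0.15 SE, edgeR adjusted p = 0.340), and in WT log2 was -3.71 (q = 2.55e-09). Below 0, beside *Adm2*, were *AU015791* (log2 difference -6.03, edgeR adjusted p = 1.05e-05), *Car15* (log2 -3.88, q = 2.52e-06), *C230072F16Rik* (log2 -3.67, q = 0.00491) and *Padi2* (log2 -3.58, q = 2.79e-04). The difference of the myosin-binding protein *Mybpc3* was also called below 0 (edgeR adjusted p = 0.00459, or 0.0503 without ND 4). It was under 1 CPM in all 8 mice and under 3 counts in ND 1, ND 3 and LID 2, so its size, listed further below, is not interpreted. Also under 3 counts in 1 to 3 mice, with sizes that are uncertain, were *Kcne2*, *Krt14*, *Col22a1*, *Muc5b* and *Scgb3a2*. Without ND 4 a difference was also no longer called for *Igf1r* (edgeR adjusted p = 0.0531), *Thrsp* (0.0834), *Acly* (0.0735), *Cubn* (0.0585), *Itgax* (0.0545), *Plin4* (0.0522), *Cnmd* (0.0585), *Scgb1a1* (0.0550) and *Scgb3a2* (0.0551). It was newly called, at an adjusted p under 0.05, for *Lipg* (log2 1.71), *Slc26a4* (-1.34), *Col18a1* (-0.91), *Npm1* (0.46), *Cxcl12* (-0.43), *Adcy7* (-0.73), *Nr4a2* (-0.60), *Col1a1* (-0.98) and *Col1a2* (-0.83). In *Glis3*-deficient mice the others had *Spon1* (log2 2.37, edgeR adjusted p = 4.52e-04), *Slc24a3* (log2 1.14, q = 0.00412), *Acaa1b* (log2 1.59, q = 0.00232), *AU015791* (log2 0.13, q = 0.813), *Car15* (log2 -0.68, q = 0.0302), *C230072F16Rik* (log2 -1.70, q = 0.0262) and *Padi2* (log2 -0.60, q = 0.210). The call depended on single mice for *Car15* (5 mice, up to edgeR adjusted p = 0.0844) and *C230072F16Rik* (4 mice, up to 0.0668), and it ended with a block for *Car15* (q = 0.0511).

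Counting ignored strand, so values of genes that overlap other entries are uncertain to that extent: *Tg*, *Kcnq1*, *Col4a1*, *Tk1*, *Ccnd1*, *Ctsb*, *Srebf1*, *Scd2*, *Pdk1*, *Col7a1*, *Cxcl17*, *Gbp2*, *B2m*, *Gli2*, *Lrat*, *Slc24a3*, *Padi2*, *Gnas*, *Crtc3*, *Nhp2*, *Tsr1*, *Bop1*, *Elovl1*, *Acss2*, *Acly*, *Tkt*, *Txnip*, *Itga4*, *Igf2r*, *Egf*, *Fgf1*, *Fstl3*, *Ptprn2*, *Pcsk2*, *Slc18a1*, *Gfra4*, *Plin4*, *Pdgfra*, *Tagln*, *Csf1r*, *Cpa3*, *Igfbp7*, *Nr1d1*, *Cfd* and *Alas2*.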

How the data were processed

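The counts per gene deposited by the authors (STAR 2.5, featureCounts 1.5.0-p1 without strand, RefSeq genes on mm10) were tested in edgeR 4.0.16 with limma 3.58.1 in R 4.3.3, using TMM factors, filterByExpr and robust quasi-likelihood fits of all 16 mice with 1 mean per group. Depths were 13892352 to 461077969 counts. A prior count of 2 was used for log2 CPM only, that is for correlations between mice, pairing, the thymocyte covariate and the spread of lists. Fold changes were those of the edgeR fit, where this prior was not set. Duplicates were looked for, and not found, within the 2 knockout groups only. *Nkx2-5* was not tested. The code was checked on simulated data.

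Pairing was read from the numbers in the titles. Deviations of equal numbers from their group means correlated at 0.212, 0.292, 0.634 and 0.648. Those of unequal numbers correlated at -0.439 to 0.358, highest for ND 1 with LID 2. By a rule set before calls were compared, pairs held where each correlation of equal numbers was over 0.1, and this was met. The main test left the pairing out, since the study's methods do not use it, and a replicate block was tried as an alternative. Other alternatives were DESeq2 1.42.0, RLE factors, library size alone, *Tg* left out, no filter, at least 10 counts in every mouse, a thymocyte covariate, the 8 mice alone, glmTreat, other thresholds, 100 bases of promoter, each mouse left out and, added after seeing the data, both mice numbered 4 left out.

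Members and lists were chosen with earlier results of these data known. Named genes were the 12 largest strict changes each way without overlap and at 5 CPM or more, other tissues' markers left out, the 6 largest differences each way at an adjusted p under 0.01, over 2-fold and at 5 CPM or more, all members of the hormone synthesis, thyroid factor and study lists, and up to 3 called members and the most abundant member of each other list, 190 in all. A further 84 list members were named after their values were seen: where 5 or fewer members of a list were called all are named, also those chosen after their values were seen. Some of these genes are not reported here, so a count can exceed the members named.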

Additional observations from a re-analysis of the deposited data

Results flagged for a closer look

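Of 570 groups of 4 mice checked among named genes and summed markers, 64 held a mouse far from the rest, with a gap to its nearest neighbour so large, beside the range of the group, as chance alone gives in about 1 in 20 groups. In 24 of the 64 the mouse was ND 4. The values below are that gap divided by the range, by mouse and by whether it was the highest or the lowest. ND 4 was highest for *I730030J21Rik* (0.871), *Ifi209* (0.965), *Ccnb1* (0.986), *Ccnb2* (0.917), *Ube2c* (0.964), *Knstrn* (0.874), *Pcna* (0.893), *Tcf7* (0.999), *Prss16* (0.968), *Mybpc3* (0.83), *Padi2* (0.889), *Adcy1* (0.917), *Adcy7* (0.873), *Slc2a3* (0.942), *Axin2* (0.922), *Foxn1* (0.852), *Brca1* (0.928), *Cd79b* (0.857), the sum of thymocyte markers (1) and the sum of thymic epithelium markers (0.948), and lowest for *Pax8* (0.869), *Col5a1* (0.859), *Slc24a3* (0.854) and *Elovl1* (0.907). ND 1 was highest for *Sik1* (0.959), *Gdf15* (0.871) and *Pth* (0.881), and lowest for *Igf2r* (0.963). ND 2 was highest for *Nr1d1* (0.964), and lowest for *Tmem35a* (0.939). LID 1 was highest for *Bpifa1* (0.946), *Inha* (0.971), *Sfrp1* (0.912), *Muc5b* (0.888), *Scgb1a1* (0.932), *Scgb3a1* (0.875), *Scgb3a2* (0.952), *Glis2* (0.966), *Krt14* (0.925), the sum of tracheal epithelium markers (0.927) and the sum of oesophageal epithelium markers (0.928), and lowest for *Cdca2* (0.954). LID 2 was highest for *Cox4i1* (0.882), *Aplnr* (0.883), *Cox7a2* (0.853), *Pttg1* (0.875) and *Taldo1* (0.842), and lowest for *Slc26a7* (0.86), *Scd2* (0.885), *Tgfbr3* (0.948), *Axin2* (0.897) and *Nr1d1* (0.901). LID 3 was highest for *Igf1r* (0.855), *Car12* (0.881), *Cspg4* (0.871) and *Prkar1a* (0.832), and lowest for *Duoxa1* (0.864). LID 4 was highest for *Tcf7* (0.992), *Prss16* (0.98), *Foxn1* (0.889), the sum of thymocyte markers (0.997) and the sum of thymic epithelium markers (0.874), and lowest for *Ccl2* (0.917) and *Cidec* (0.847).

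The test of the difference in diet response between genotypes (log2 fold change in *Glis3*-deficient mice minus that in WT) was called by edgeR for 80 of the named genes. It was above 0 for *Ptprn* (3.59), *Cck* (3.99), *Sphk1* (2.28), *Slc1a1* (2.51), *Prkar2b* (1.56), *Ssr2* (0.75), *Insig1* (1.499), *Srebf1* (1.06), *Scd2* (1.12), *Elovl6* (1.61), *Cox4i1* (0.70), *Col7a1* (1.36), *Igf1r* (0.59), *Igfbp5* (1.23), *Lrat* (3.92), *Spon1* (3.63), *Slc24a3* (3.05), *Acaa1b* (2.75), *Mybbp1a* (0.41), *Fads2* (1.26), *Thrsp* (1.47), *Acly* (0.76), *Aldoc* (1.11), *Txnrd3* (0.54), *Cidec* (1.55), *Plin4* (1.12), *Cnmd* (1.73), *Scgb1a1* (7.74), *Scgb3a1* (7.04), *Scgb3a2* (7.89), *Pttg1* (0.69) and *Acat2* (1.16). It was below 0 for *Slc5a5* (-3.22), *Duox2* (-0.92), *Duoxa2* (-1.41), *Kcnq1* (-1.02), *Slc22a14* (-1.94), *Gnat1* (-1.33), *Shisa9* (-2.05), *Kcnc2* (-1.65), *Fras1* (-1.12), *Dio1* (-1.20), *Sod3* (-2.08), *Cdh13* (-3.06), *Adm2* (-7.57), *Col6a2* (-1.07), *Col4a1* (-1.70), *Col8a1* (-1.51), *Itga2* (-3.78), *Ccl2* (-3.26), *Ccl7* (-2.42), *Cdca2* (-1.09), *Ccnd1* (-1.05), *Vegfa* (-0.55), *Col5a1* (-0.60), *Aplnr* (-1.66), *Tek* (-1.57), *Plvap* (-1.68), *Rgs5* (-1.42), *Cxcl17* (-2.44), *Lyz2* (-0.92), *Gli2* (-0.99), *Mybpc3* (-6.72, from levels near the floor), *AU015791* (-6.03), *Car15* (-3.88), *C230072F16Rik* (-3.67), *Padi2* (-3.58), *Dusp1* (-1.27), *Klf2* (-1.11), *Car12* (-3.72), *Cubn* (-1.15), *Itgax* (-0.94), *Plau* (-1.70), *Notum* (-1.61), *Sfrp1* (-0.70), *Pecam1* (-1.93), *Tagln* (-1.59), *Itgb1* (-0.52), *Sparc* (-0.86) and *Igfbp7* (-1.42). Of the 80 calls, 55 were kept under each alternative. Those not kept were of *Cox4i1*, *Igf1r*, *Thrsp*, *Acly*, *Txnrd3*, *Cidec*, *Plin4*, *Cnmd*, *Scgb1a1*, *Scgb3a1*, *Scgb3a2*, *Duox2*, *Kcnq1*, *Gnat1*, *Shisa9*, *Kcnc2*, *Cdca2*, *Vegfa*, *Lyz2*, *Mybpc3*, *Dusp1*, *Cubn*, *Itgax*, *Notum* and *Sfrp1*. Under the alternatives the differences of *Scgb1a1*, *Scgb3a1* and *Scgb3a2* fell as low as 4.95, 4.53 and 4.47.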

How the results depend on the processing

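Under the alternatives, the 267 named genes gave 7180 values of the diet response, of which 6523 kept direction and call, 554 kept the direction and lost the call, 35 gained one and 68 turned in sign. All of the last were of genes that were not called. Of the 218 called genes, 132 kept the call under each alternative. The replicate block changed no other diet call of a named gene than those given, and in 16 mice it ended the call of a difference for *Igf1r*, *Thrsp*, *Acly*, *Itgax*, *Notum*, *Plin4* and *Scgb1a1*. For the strict call of lower genes the fit of the 8 mice alone gave 186. At an adjusted p under 0.05 it gave 1321 higher and 1053 lower, and library size as the only scaling gave 1297 and 3385, and 5203 lower in WT. With the block the 8 mice gave 1545 and 1348. Without a limit on the fold, the strict counts became 1290 and 900 at an adjusted p under 0.01 and 2184 and 2039 at 0.05. With single mice left out, differences above 0 numbered 432 to 758. The fits of 8 hold fewer mice, and the cause of the other shifts was not tested. Turned in sign were *Nkx2-1* (-0.12), *Kcnq1* (-0.064), *Col6a2* (-0.063), *AU015791* (-0.013), *Npm1* (-0.069), *Aldoa* (-0.087), *Taldo1* (-0.045), *Cxcl12* (-0.072), *Cd79b* (-0.051) and *Cfd* (-0.032) with library size as the only scaling, *Nkx2-1* (-0.00844) with at least 10 counts in every mouse, *Nkx2-1* (-0.00897), *Col6a2* (-0.00094), *Tcf7* (0.019), *Mybpc3* (0.064) and *Krt14* (0.72) with the thymocyte covariate, *Nkx2-1* (-0.00134) in the 8 mice alone, *Nkx2-1* (-0.13), *Mybpc3* (0.78), *Aldoa* (-0.031), *Cxcl12* (-0.033) and *Krt14* (1.42) without ND 4 and LID 4, *Mybpc3* (0.013) by DESeq2, *Mybpc3* (0.15) with the replicate block in 16 mice, *Nr1d1* (0.011) and *Krt14* (0.60) with the replicate block in the 8 mice. With single mice left out, log2 fold changes spanned -0.12 to 0.13 for *Nkx2-1*, -0.31 to 0.029 for *Foxe1*, -0.13 to 0.20 for *Slc26a7*, -0.18 to 0.17 for *Kcnq1*, -0.095 to 0.23 for *Col6a2*, -0.20 to 0.0053 for *Rgs5*, -5.59 to 2.93 for *Tcf7*, -4.44 to 1.58 for *Prss16*, -0.46 to 1.23 for *Mybpc3*, -0.095 to 0.37 for *AU015791*, -0.14 to 0.016 for *Glis2*, -0.092 to 0.20 for *Aldoa*, -0.00453 to 0.12 for *Cxcl12*, -0.28 to 0.096 for *Igfbp7*, -0.11 to 0.22 for *Nr1d1*, -0.11 to 0.24 for *Cd79b*, -1.95 to 0.63 for *Acta1*, -0.12 to 0.29 for *Cfd* and -1.71 to 1.26 for *Krt14*. Values of *Mybpc3* rest on levels near the floor. The cause was not tested. Of 4292 list values 362 moved, counts by over 1.5 times or medians by over the SD between mice. In the 100 bases before the start, TTTGAA was held by 29.4 percent and CCAAT by 60.3 percent of mitosis genes, beside 4.13 and 24.9 percent of tested genes and 5.77 and 18.9 percent of single promoters. Depth limits low genes most in ND 1, with the fewest counts.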
